A study of Mus musculus with 7 samples.

Results

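Cation-chloride cotransporters and the kinases that control them were described in RNA bound to tagged ribosomes of kisspeptin cells of female mice, taken from the AVPV, the anteroventral periventricular nucleus of the hypothalamus. The set was chosen by name and held 9 of the 55384 genes listed in the deposited table. They were the sodium-potassium-chloride importer Slc12a2, the potassium-chloride exporters Slc12a4, Slc12a5 and Slc12a7, the cotransporter relative Slc12a9, the kinases Wnk1 and Wnk3, and the downstream kinases Stk39 and Oxsr1. All 9 were among the 18282 genes that passed the filter on low counts.

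The E2 group held 3 libraries from females treated with estradiol, and the GDX group held 4 libraries from ovariectomized females without estradiol. All females were Kiss1Cre+/Rpl22HA+/+ on a C57BL/6 background, so an HA-tagged Rpl22 marked the ribosomes of cells in which Kiss1-driven Cre had acted. Every library was a pool of AVPV micropunches from 4 brains. The label of GDX replicate 4 carries a pulldown number apart from those of the other libraries, and the labels do not say whether it was a batch. Age and the dose and length of the estradiol treatment were not given in the sources used here, and the labels do not say whether the E2 females had also been ovariectomized. The comparison asks how ribosome-bound RNA of these cells differs with estradiol.

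Cation-chloride cotransporters set the chloride concentration inside a cell. NKCC1, the product of Slc12a2, brings chloride in together with sodium and potassium, and KCC2, the neuronal product of Slc12a5, takes it out together with potassium. The balance of these proteins decides whether opening a GABA-A receptor channel inhibits or excites a neuron. WNK kinases respond to chloride and to osmotic stress and activate SPAK (Stk39) and OSR1 (Oxsr1), which phosphorylate the cotransporters, switching NKCC1 on and the KCC exporters off. RNA measurements do not report this phosphorylation.

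The libraries held 29207544 to 36213127 counts, and levels are given as CPM, counts scaled to library size. Kiss1, which marks the cells, was at 379 to 485 CPM in E2 libraries and 44.5 to 114 CPM in GDX libraries, with counts that may be shared with the overlapping Gm28040. Rpl22, the tagged gene, was at 33.7 to 35.9 CPM in E2 and 26.8 to 32.8 CPM in GDX libraries. Pgr, the progesterone receptor gene and an estrogen target, was at 109 to 132 CPM in E2 and 23.5 to 33.1 CPM in GDX libraries. Slc32a1, Gad1 and Th were also detected in all 7 libraries. Their minima were 365, 670.2 and 534 CPM in E2 and 369, 642 and 235 CPM in GDX libraries. Th was higher in E2 (log2 fold change, E2 over GDX, 0.89, edgeR adjusted p = 0.000506), as was Gad2 (0.43, adjusted p = 0.00386). Slc32a1 (0.07, adjusted p = 0.731), Gad1 (0.09, adjusted p = 0.487) and Esr1 (−0.39, adjusted p = 0.0901) did not pass. RNA of other cells was present: summed astrocyte markers reached 994 to 1149.5 CPM in E2 and 1297 to 3411 CPM in GDX libraries, highest in GDX replicates 1 and 4. All 10 astrocyte markers were lower on average in E2 and 0 passed the test, and no marker of this list was at 0 in any library. The mean log2 level of 40 astrocyte, oligodendrocyte, microglial and endothelial markers was 5.06 ± 0.14 in E2 (SD, n = 3) and 5.56 ± 0.35 in GDX (SD, n = 4), a difference of −0.49 with a two-sided exact permutation p of 0.0857. The smallest p that these group sizes allow is 0.0286. This score ran from 4.91 to 5.17 in E2 and from 5.20 to 5.93 in GDX libraries. A fit that holds it as a covariate therefore cannot fully part it from the group. In such bulk samples, fewer cells of a type and less RNA per cell cannot be told apart.

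Slc12a7, the KCC4 exporter gene, was the member that changed, and it was lower with estradiol. Slc12a5, the KCC2 gene, held the highest level per kilobase in every library and did not pass the test. Slc12a2 and the 4 kinases did not pass either. Of the 9 genes, 0 were higher and 1 was lower in E2 at a Benjamini-Hochberg adjusted p under 0.05 (edgeR quasi-likelihood test), where 3.88% of all genes tested passed, 2.55% as higher and 1.33% as lower. At an unadjusted p under 0.05 there were 2 of 9 members, Slc12a4 and Slc12a7, near the share of 16.8% over all genes tested. DESeq2, which called 7.66% of all genes, and limma-voom, which called 5.92%, each called 1 member, as lower. The median log2 fold change, E2 over GDX, was −0.01 over the members and 0.00 over all genes tested, whose quartiles were −0.20 and 0.16.

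Promoter windows are shown for Slc12a7, the member that changed, at the more upstream of its 2 annotated starts, and for its paralog Slc12a5, the most abundant member, which did not pass. Each window is taken from RefSeq on GRCm38.p6 and runs 5′ to 3′ on the gene's strand, with 250 bases before and 50 after an annotated start. Capitals mark the estrogen response element half-site GGTCA and the Sp1 box GGGCGG on either strand.
Slc12a7, chr13:73763410-73763709 (+): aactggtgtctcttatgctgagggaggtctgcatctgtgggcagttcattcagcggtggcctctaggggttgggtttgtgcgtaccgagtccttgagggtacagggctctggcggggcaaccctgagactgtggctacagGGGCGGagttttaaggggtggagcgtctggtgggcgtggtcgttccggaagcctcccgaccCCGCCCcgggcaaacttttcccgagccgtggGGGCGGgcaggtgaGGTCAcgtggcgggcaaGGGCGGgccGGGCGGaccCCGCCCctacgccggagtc
Slc12a5, upstream start, chr2:164960596-164960895 (+): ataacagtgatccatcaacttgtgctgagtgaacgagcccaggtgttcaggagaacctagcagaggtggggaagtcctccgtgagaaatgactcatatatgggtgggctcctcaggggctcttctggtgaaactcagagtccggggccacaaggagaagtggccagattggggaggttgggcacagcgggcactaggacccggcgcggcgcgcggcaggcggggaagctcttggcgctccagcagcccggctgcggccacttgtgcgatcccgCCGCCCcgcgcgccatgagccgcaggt
Slc12a5, downstream start, chr2:164967738-164968037 (+): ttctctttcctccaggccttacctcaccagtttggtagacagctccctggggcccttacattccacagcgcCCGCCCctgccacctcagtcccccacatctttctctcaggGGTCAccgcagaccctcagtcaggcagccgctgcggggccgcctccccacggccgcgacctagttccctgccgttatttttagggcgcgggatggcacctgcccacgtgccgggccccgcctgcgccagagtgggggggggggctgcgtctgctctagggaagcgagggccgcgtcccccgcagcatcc

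The Slc12a7 window shown held a GGTCA half-site that begins at position −4, counting the annotated start as 0, and an E-box (CACGTG) at position −1 that shares 2 bases with it. It also held 6 Sp1 boxes, and its start lies inside the span that GENCODE gives the gene. The second Slc12a7 window, chr13:73763447-73763746, overlaps it and holds the same half-site, at −41 from its own start, and the same E-box, at −38. The upstream Slc12a5 window held no half-site and 1 Sp1 box. The downstream Slc12a5 window held a half-site at position −139, an Sp1 box at −179 and an E-box at −36. RefSeq windows were found for 8 of the 9 members, 10 windows in all. GGTCA was in 5 of these 10 and in 40.5% of all 32851 windows of this length. GGGCGG was in 9 of 10 and in 35.7% of all windows, and CACGTG was in 4 of 10 and in 7.15%. The full palindromic estrogen response element, GGTCA and TGACC set 3 bases apart, was in 0 of 10 and in 0.07% of all windows. Since the overlapping Slc12a7 windows share their sites, each of these sites counts in 2 windows. Counted by gene, GGTCA was found for 4 of 8 members, GGGCGG for 7 of 8 and CACGTG for 3 of 8. These matches describe letters only. Member windows were rich in G and C: the Slc12a7 windows were 66.7% and 69.3% and the Slc12a5 windows were 63.7% and 68.3%, against a median of 52.7% over all windows, while Wnk3 held 31.7%.

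Slc12a2 (ENSMUSG00000024597, chromosome 18, 57878678 to 57946821, plus strand, GRCm38) encodes NKCC1, which loads cells with chloride. It was at 63.2, 47.7 and 49.2 CPM in E2 replicates 1 to 3, and at 65.6, 46.8, 45.6 and 67.5 CPM in GDX replicates 1 to 4. The groups overlapped fully, with E2 replicate 1 and GDX replicates 1 and 4 above the other 4 libraries. Mean levels were 53.4 ± 8.5 CPM in E2 (SD, n = 3) and 56.4 ± 11.8 CPM in GDX (SD, n = 4). The log2 fold change was −0.08 ± 0.17 (SE), its 95% interval ran from −0.45 to 0.29, and the adjusted p was 0.877. The interval leaves room for a change of either sign. GDX replicates 1 and 4 also held the highest sums of astrocyte markers, at 2839 and 3411 CPM, whereas E2 replicate 1 held the lowest, at 994 CPM. The same libraries were highest and lowest for endothelial, pericyte and fibroblast, and ependymal sums. The part of RNA of such cells in Slc12a2 was not tested. With the non-neuronal score as a covariate the log2 fold change was 0.25, and without GDX replicates 1 and 4 it was 0.20.

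Slc12a5 (ENSMUSG00000017740, chromosome 2, 164960802 to 164999731, plus strand) encodes KCC2, the chloride extruder of mature neurons. It was at 615, 626 and 659 CPM in the E2 libraries and at 579.8, 629.5, 579.7 and 572 CPM in the GDX libraries. Only GDX replicate 2 reached into the E2 range, and the other GDX libraries lay below it. Mean levels were 634 ± 22.6 CPM in E2 (SD, n = 3) and 590.4 ± 26.4 CPM in GDX (SD, n = 4). The log2 fold change was 0.10 ± 0.06 with a 95% interval from −0.04 to 0.24 and an adjusted p of 0.477. Without scaling factors it was 0.04 (edgeR adjusted p = 0.818). Its counts of 18769 to 21262 per library were the highest of the set.

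Slc12a7 (ENSMUSG00000017756, chromosome 13, 73733094 to 73816754, plus strand) encodes KCC4, an exporter best known from kidney and inner ear. It was at 14.1, 13.2 and 14.4 CPM in the E2 libraries and at 25.7, 31.4, 26.7 and 30.5 CPM in the GDX libraries. Every E2 library lay below every GDX library, and both groups were narrow. Mean levels were 13.9 ± 0.631 CPM in E2 (SD, n = 3) and 28.6 ± 2.77 CPM in GDX (SD, n = 4), 2.05-fold lower in E2. The log2 fold change was −1.04 ± 0.12, with a 95% interval from −1.29 to −0.78 and an adjusted p of 0.000291. A change of at least 2-fold that also passed the test was found for 1.16% of all genes tested. The 10 endothelial markers were also lower on average in E2, with a median log2 fold change of −1.06 and 0 past the test, and summed to 139.5 to 230.3 CPM in E2 and 239.7 to 644 CPM in GDX libraries. The 9 pericyte and fibroblast markers had a median of −1.10 and sums of 102 to 151 CPM in E2 and 158 to 606 CPM in GDX libraries. The 606 CPM was in GDX replicate 4, and replicates 1 to 3 held 274, 174 and 158 CPM. Of these markers 0 passed the test, and none of either list was at 0 in a library. The 8 ependymal markers were all lower on average in E2, with a median of −0.88 and sums of 44.9 to 80.0 CPM in E2 and 78.2 to 141 CPM in GDX libraries, and none was at 0 in a library. Of these, 2 passed as lower, Rarres2 (−1.04 ± 0.23, adjusted p = 0.0356) and Cfap126 (−0.90 ± 0.21, adjusted p = 0.035). The part of ependymal and pericyte RNA in the Slc12a7 result was not tested, since the non-neuronal score holds no markers of these lists. Astrocyte markers had a median of −0.55. Oligodendrocyte markers had a median of −0.32, with 9 of 10 lower on average in E2, and oligodendrocyte precursor markers one of −0.33, with 5 of 6 lower. The 10 microglial markers had a median of 0.03, with 5 lower on average in E2. Of 7 choroid plexus markers tested, with a median of −0.08, 2 passed as higher, Ttr (1.81, adjusted p = 0.000704) and Prlr (0.71, adjusted p = 0.01). Within GDX, summed endothelial markers were at 449, 284, 239.7 and 644 CPM in replicates 1 to 4. Slc12a7 was at 25.7, 31.4, 26.7 and 30.5 CPM in the same libraries. The Slc12a7 difference was as large with the non-neuronal score as a covariate (−1.08, adjusted p = 0.00426, where 1.78% of all genes passed) and without GDX replicates 1 and 4 (−1.06, adjusted p = 0.000134, where 4.16% passed).

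Slc12a4 (ENSMUSG00000017765, chromosome 8, 105943590 to 105966097, minus strand) encodes KCC1, a widely expressed exporter used in volume regulation. It was at 10.2, 10.8 and 11.1 CPM in the E2 libraries and at 21.8, 11.5, 12.5 and 24.8 CPM in the GDX libraries. The groups did not overlap, but GDX replicates 2 and 3 lay close to the E2 libraries and replicates 1 and 4 far above. Mean levels were 10.7 ± 0.465 CPM in E2 (SD, n = 3) and 17.7 ± 6.64 CPM in GDX (SD, n = 4). The log2 fold change was −0.72 ± 0.27, with a 95% interval from −1.32 to −0.13, an unadjusted p of 0.0221 and an adjusted p of 0.199, so it did not pass. The 2 high GDX libraries were those with the highest sums of astrocyte, endothelial, pericyte and fibroblast, and ependymal markers. The part of each of these cell types in Slc12a4 was not tested. Without GDX replicates 1 and 4 the log2 fold change was −0.17 (adjusted p = 0.755). It was 0.03 with the non-neuronal score as a covariate (adjusted p = 0.986). Without a filter on low counts, where 4.80% of all genes passed, Slc12a4 passed as lower (−0.73, adjusted p = 0.000761). Slc12a4 and Slc12a7 were the 2 of 9 members whose groups did not overlap, as was so for 16.5% of all genes tested.

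Slc12a9 (ENSMUSG00000037344, chromosome 5, 137314558 to 137333597, minus strand) encodes a relative of these cotransporters with no settled transport role. It was at 25.5, 27.6 and 27.7 CPM in the E2 libraries and at 22.1 to 30.7 CPM in the GDX libraries. The E2 values lay inside the GDX range, and the log2 fold change was −0.01 ± 0.12 (adjusted p = 0.976).

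**Figure D1:**
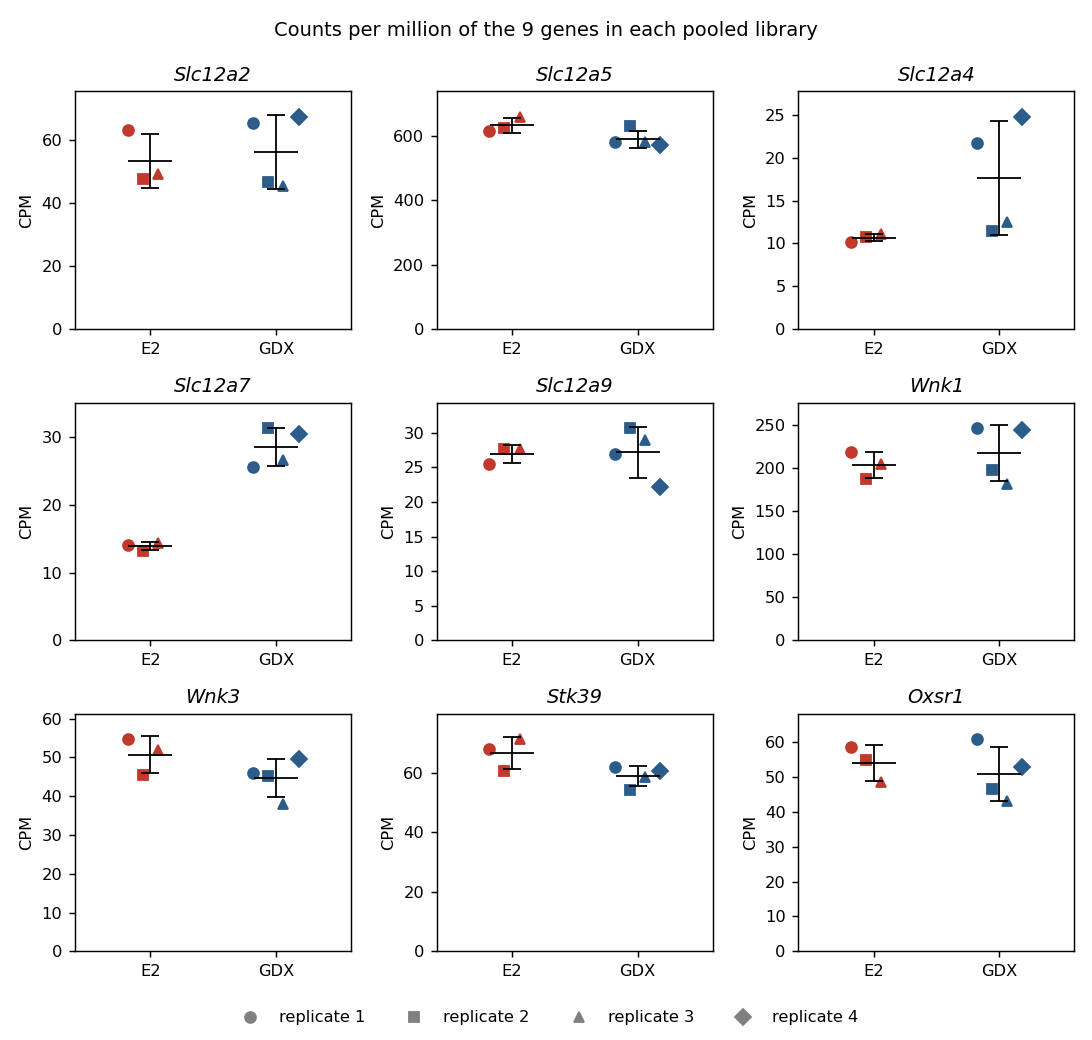
Level of each of the 9 genes in CPM (vertical axes, each from 0) in the 3 E2 and 4 GDX libraries; points are libraries, with a symbol for each replicate number, and bars are the mean with SD. Slc12a7 held 13.2 to 14.4 CPM in E2 and 25.7 to 31.4 CPM in GDX libraries without overlap, whereas the groups overlapped for 7 of the others and Slc12a4 was split within GDX.

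The groups overlapped for all 4 kinases. Wnk1 (ENSMUSG00000045962, chromosome 6, 119923969 to 120038672, minus strand), the broadly expressed chloride-sensing kinase, was at 218, 187 and 204 CPM in E2 and at 246, 197, 181 and 244 CPM in GDX libraries. Its GDX libraries spanned the whole E2 range, with replicates 1 and 4 highest. The log2 fold change was −0.10 ± 0.11 (95% interval −0.35 to 0.15, adjusted p = 0.755), and it was 0.10 without GDX replicates 1 and 4. Wnk3 (ENSMUSG00000041245, chromosome X, 151198078 to 151320152, plus strand), a family member found in neurons, was at 54.7, 45.5 and 51.9 CPM in E2 and at 45.9, 45.3, 38.0 and 49.5 CPM in GDX libraries. The groups overlapped, with a log2 fold change of 0.18 ± 0.11 (95% interval −0.05 to 0.42, adjusted p = 0.443).

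Stk39 (ENSMUSG00000027030, chromosome 2, 68210445 to 68472268, minus strand) encodes SPAK, which WNK kinases activate. It was at 67.8, 60.6 and 71.2 CPM in E2 and at 61.9, 54.2, 58.6 and 60.4 CPM in GDX libraries. E2 replicate 2 lay below GDX replicate 1, so the groups overlapped by 1 pair. It differed by a log2 fold change of 0.18 ± 0.09 (95% interval −0.01 to 0.37, adjusted p = 0.336). Oxsr1 (ENSMUSG00000036737, chromosome 9, 119238432 to 119322427, minus strand) encodes OSR1, its close relative. It was at 58.6, 54.7 and 48.5 CPM in E2 and at 60.8, 46.5, 43.2 and 52.7 CPM in GDX libraries. The groups overlapped, with a log2 fold change of 0.09 ± 0.12 (95% interval −0.18 to 0.35, adjusted p = 0.803).

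**Figure D2:**
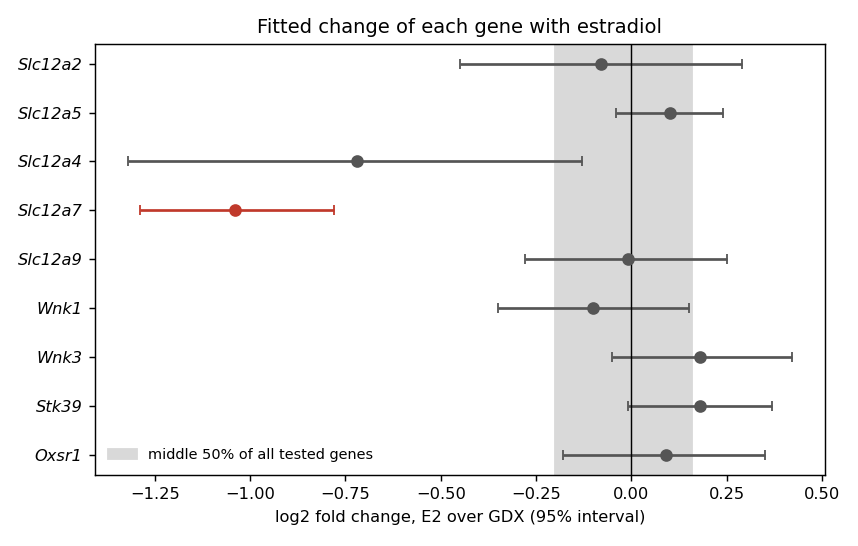
Log2 fold change, E2 over GDX, of the 9 genes with 95% intervals from the edgeR quasi-likelihood fit. The interval of Slc12a7 ran from −1.29 to −0.78, that of Slc12a4 from −1.32 to −0.13, and the intervals of the other 7 genes held 0.

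The deposited counts carry no strand information, and the annotation places antisense genes over 2 members. Gm16156 overlaps 361 bp of Slc12a4 exons and averaged 0.0426 CPM in E2 and 0.0484 CPM in GDX. A230072E10Rik overlaps 523 bp of Wnk3 exons and averaged 1.2 CPM in E2 and 1.07 CPM in GDX. From these counts, reads of the overlaps could not be assigned to a strand. Among other genes named below, exons of Slc4a2, Clcn1, Clcn2, Gabra4 and Cab39l overlap those of another gene by 46 to 1141 bp, so their counts may be shared.

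Levels were compared between genes as CPM per kilobase of merged exons. Slc12a5 stood highest, at 85.1 ± 3.04 in E2 and 79.3 ± 3.54 in GDX. Stk39 followed at 13.4 in E2 and 11.9 in GDX, Oxsr1 at 10.1 and 9.5, and Wnk1 at 8.9 and 9.51. Slc12a9 held 5.36 in E2 and 5.41 in GDX, Slc12a2 4.89 and 5.16, and Wnk3 4.79 and 4.22. Slc12a4 held 2.5 in E2 and 4.13 in GDX, and Slc12a7 was lowest at 1.1 in E2 and 2.26 in GDX. Between neighbours in this order, ranges over the 7 libraries did not overlap for Slc12a5 above Stk39 and for Wnk1 above Slc12a9, and the other 6 neighbouring pairs overlapped. Per kilobase of the longest transcript Wnk1 stood beside Stk39, above Oxsr1, while Slc12a5 stayed the highest and Slc12a7 the lowest.

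**Figure D3:**
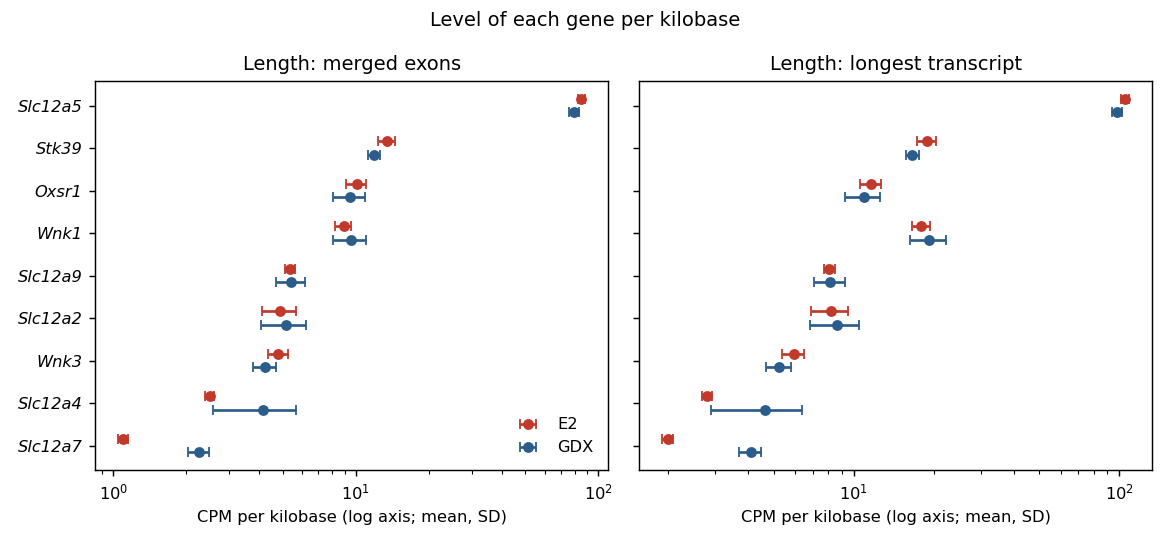
Level of each gene as CPM per kilobase on logarithmic axes, by the length of merged exons (left) and of the longest transcript (right); points are means and bars the SD over 3 E2 and 4 GDX libraries. By merged exons Slc12a5 averaged 85.1 in E2 and 79.3 in GDX, and Slc12a7 averaged 1.1 in E2 and 2.26 in GDX.

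The ratio of Slc12a5 to Slc12a2, exporter to importer per kilobase, was 14.3, 19.2 and 19.6 in the E2 libraries and 13.0, 19.7, 18.7 and 12.4 in the GDX libraries. The means of 17.7 ± 2.98 in E2 (SD, n = 3) and 15.9 ± 3.78 in GDX (SD, n = 4) differed by less than the spread, and the low values were those of the libraries with high Slc12a2. Of the summed levels per kilobase of the exporter members Slc12a4, Slc12a5 and Slc12a7, Slc12a5 made up 95.9%, 95.9% and 96.0% in E2 and 91.6%, 94.2%, 93.9% and 90.4% in GDX libraries. The share of Slc12a7 was 1.24 ± 0.0522% in E2 and 2.63 ± 0.202% in GDX. The ratio of Wnk1 to Wnk3 was 1.82 to 1.91 in E2 and 2.01 to 2.49 in GDX libraries, without overlap. This ratio was not tested, and neither gene passed on its own. Taken singly, 16.5% of all genes tested had groups that did not overlap. The ratio of Stk39 to Oxsr1 averaged 1.34 ± 0.211 in E2 and 1.26 ± 0.15 in GDX.

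Among the members, the profiles over the 7 libraries were most alike for Slc12a2 and Wnk1, with a root mean square difference of 0.095 in centred log2 level. Slc12a5 and Stk39 differed by 0.114, and Wnk3 and Stk39 by 0.117. Slc12a7 stood apart, since its nearest member, Slc12a4, lay at 0.437. Over 11745 protein-coding genes averaging 5 CPM or more, the profiles nearest to Slc12a2 were those of Mpdz (0.047), Slf1 (0.066), Phip (0.069), Hadha (0.076) and Tbc1d12 (0.079), where the median gene lay at 0.289. Those nearest to Slc12a5 were Mgrn1 (0.015), Wdr13 (0.024), Ergic1 (0.025), Gle1 (0.026) and Coro2b (0.030), with a median of 0.164. For Slc12a7, examined after its values were seen, they were Peg10 (0.100), Calcr (0.115), Olfml2b (0.123), Rasl11b (0.127) and Fam13a (0.137), with a median of 0.545.

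**Figure D4:**
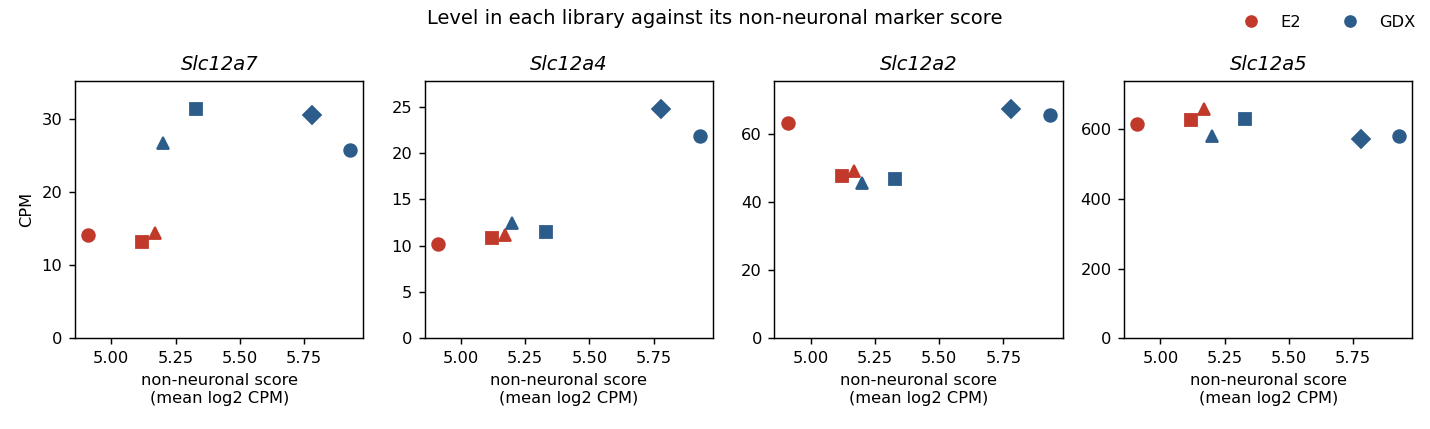
Levels of Slc12a7, Slc12a4, Slc12a2 and Slc12a5 in CPM (vertical axes, from 0) against the non-neuronal marker score (mean log2 CPM over 40 markers, horizontal axis) in the 3 E2 and 4 GDX libraries; each point is a library, with circle, square, triangle and diamond for replicates 1 to 4. GDX replicates 1 and 4, at scores of 5.93 and 5.78, held the highest Slc12a4 levels, 21.8 and 24.8 CPM, while Slc12a7 was at 25.7 to 31.4 CPM in all 4 GDX libraries.

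The rest of the Slc12 and WNK families gave 0 calls among 5 genes tested with edgeR, DESeq2 or limma-voom, and 0 had an unadjusted p under 0.05. Their median log2 fold change was 0.09. Over all genes tested, edgeR called 3.88%, DESeq2 7.66% and limma-voom 5.92%, and 16.8% had an unadjusted edgeR p under 0.05. These shares stand beside the counts of each list below. The kidney transporter genes were near the limit of detection. Slc12a1 was at 0.154, 0.429 and 0.859 CPM in E2 and 0.0273 to 0.335 CPM in GDX libraries. Slc12a3 was at 0.616, 0 and 0.661 CPM in E2 and 0.0838 to 0.47 CPM in GDX libraries. A floor of 3 counts equals 0.0818 to 0.101 CPM, which covers counting error only. Of the 11 WNK partners, 0 passed by any of these tools and 1 had an unadjusted edgeR p under 0.05, with a median of 0.03. Cab39, which encodes the scaffold MO25 that activates SPAK and OSR1, had a log2 fold change of 0.03 ± 0.07 (adjusted p = 0.889), and Cab39l one of −0.00 ± 0.13 (adjusted p = 0.998).

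Among 13 partners and regulators of KCC2, 2 were higher and 0 lower in E2 by edgeR, and the median log2 fold change was 0.04. DESeq2 and limma-voom each called 2 higher and 0 lower. Of the 13 genes, 4 had an unadjusted edgeR p under 0.05, against 16.8% of all genes tested. The groups did not overlap for 5 of the 13, against 16.5% of all genes tested. Neto2, an auxiliary protein of kainate receptors that binds KCC2, was at 66.1, 62.7 and 60.5 CPM in E2 and averaged 36.8 ± 2.78 CPM in GDX libraries, of which the highest held 40.9 CPM. The groups were far apart, with a log2 fold change of 0.78 ± 0.09 (adjusted p = 0.000312). Ckb, which encodes the KCC2-binding brain creatine kinase, was at 1318, 1491 and 1393 CPM in E2 and 1134, 1009, 1097 and 1039 CPM in GDX libraries. Each E2 library exceeded each GDX library, with a log2 fold change of 0.39 ± 0.07 (adjusted p = 0.00738). That call was lost without E2 replicate 2 (adjusted p = 0.0626). The kainate receptor gene Grik2 (−0.25, adjusted p = 0.182) and Epb41l1 (0.04, adjusted p = 0.833), which encodes the cytoskeletal protein 4.1N, did not pass.

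Of the chloride and volume-regulated channels, 17 of 18 were tested, with 0 higher and 1 lower in E2 by edgeR and a median of −0.01. DESeq2 called 1 higher and 3 lower, limma-voom 1 higher and 2 lower, and 5 had an unadjusted edgeR p under 0.05. Ttyh2, a tweety family gene, was at 20.0, 18.0 and 20.7 CPM in E2 and 44.1, 30.6, 26.1 and 32.7 CPM in GDX libraries, with a fitted log2 difference of −0.77 ± 0.16 (adjusted p = 0.0204). GDX replicate 1, the highest, also held the highest oligodendrocyte marker sum, 5918 CPM against 2639 to 3167 CPM in E2 and 2849 to 3153 CPM in the other GDX libraries. The Ttyh2 call held without GDX replicate 1 (−0.61, adjusted p = 0.0342) and without GDX replicates 1 and 4 (−0.54, adjusted p = 0.0326). It was lost with the non-neuronal score as a covariate (−0.38, adjusted p = 0.494) and when any of the E2 libraries was left out (adjusted p of 0.0768 to 0.116). The channel genes Clcn1 (0.41, adjusted p = 0.645) and Clcn2 (0.03, adjusted p = 0.956) did not pass. Of 22 bicarbonate transporter and carbonic anhydrase genes tested, 0 passed with edgeR or limma-voom, 1 passed as lower with DESeq2, and 2 had an unadjusted edgeR p under 0.05. Their median was −0.20, below that of all genes, and the part of RNA of other cells in it was not tested. Slc4a2 was at −0.14 (adjusted p = 0.662) and Slc4a3 at 0.09 (adjusted p = 0.754).

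The sodium-potassium ATPase supplies the gradients that the cotransporters use. Of 8 tested genes, 1 was higher and 1 was lower in E2 by edgeR, and the median was −0.16. DESeq2 called 1 higher and 2 lower, and limma-voom 2 higher and 1 lower. Of the 8 genes, 5 had an unadjusted edgeR p under 0.05, against 16.8% of all genes tested. The groups did not overlap for 5 of the 8, against 16.5% of all genes tested. Atp1b3, a beta subunit gene, was at 200.4, 205 and 187 CPM in E2 and 132, 132, 139 and 165 CPM in GDX libraries (0.47 ± 0.09, adjusted p = 0.0103). All E2 libraries lay above the GDX libraries for Atp1b3. Fxyd6, a pump regulator gene, was at 279.6, 317 and 299.8 CPM in E2 and 377, 409, 470.2 and 369 CPM in GDX libraries (−0.44 ± 0.09, adjusted p = 0.0168). The Fxyd6 call was lost when any of the E2 libraries was left out (adjusted p of 0.0536 to 0.132), and the Atp1b3 call without E2 replicate 1 (0.0574) or 2 (0.0576). With the covariate Atp1b3 had a difference as large with a wider error, 0.52 ± 0.13, and did not pass (adjusted p = 0.0869).

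GABA-A and glycine receptors are the channels whose current depends on the chloride gradient. Of 19 genes tested, 0 were higher and 2 were lower in E2 by edgeR, with a median of −0.15. DESeq2 called 0 higher and 3 lower, limma-voom 0 higher and 2 lower, and 5 had an unadjusted edgeR p under 0.05. Gabrg3, a gamma subunit gene, was at 46.2, 44.8 and 40.5 CPM in E2 and 59.3, 62.8, 63.7 and 72.2 CPM in GDX libraries (−0.56 ± 0.09, adjusted p = 0.0055). Gabra4, an alpha subunit gene, was at 22.3, 21.4 and 22.0 CPM in E2 and 27.7, 32.6, 29.4 and 32.1 CPM in GDX libraries (−0.47 ± 0.10, adjusted p = 0.0215). The groups did not overlap for 5 of the 19 genes, these 2 among them, against 16.5% of all genes tested. The Gabra4 call was lost when any of the E2 libraries was left out (adjusted p of 0.0822 to 0.103) and without GDX replicate 2 (0.0676). With the non-neuronal score as a covariate, where 1.78% of all genes passed, neither passed. The log2 fold changes were then −0.57 ± 0.14 for Gabrg3 (adjusted p = 0.0649) and −0.53 ± 0.15 for Gabra4 (adjusted p = 0.133). Gabra2 (0.12, adjusted p = 0.507) did not pass.

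**Figure D5:**
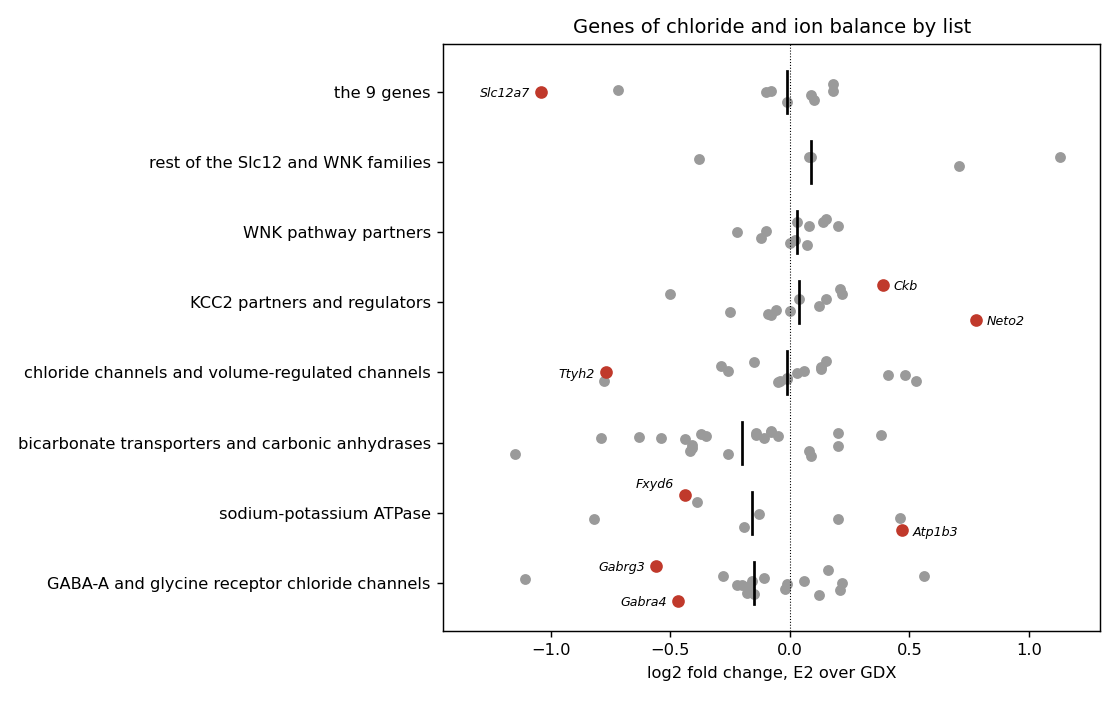
Log2 fold change, E2 over GDX (horizontal axis), of the tested genes counted in the 8 lists; red points passed an adjusted p under 0.05, grey points did not, and black bars are list medians. Medians ran from −0.20 for bicarbonate transporters and carbonic anhydrases to 0.09 for the rest of the Slc12 and WNK families.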

How the data were processed

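Ribosome-bound RNA was sequenced in 3 E2 and 4 GDX libraries. The deposited table holds expected counts per gene; 33.1% of the values above 0 carried decimals. Per the submitters' processing notes, Trimmomatic 0.38, STAR 2.6.0a, RSEM 1.3.0 and mm10 were used by the authors, with no role or order stated. The sources used here name no annotation, and 55203 identifiers matched GENCODE vM21 (GRCm38), used for symbols, coordinates and exon lengths.

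Expected counts were rounded to whole numbers and tested in R 4.3.3 with edgeR 4.0.16 (TMM, filterByExpr with a minimum count of 10 and a minimum total of 15, robust quasi-likelihood test), with Benjamini-Hochberg adjustment over 18282 genes. Of these, 710 changed, 467 higher and 243 lower in E2. Fold changes use a prior count of 0.125, and marker scores and profiles one of 2. Intervals and standard errors come from the fit. The script was tested on simulated data. Nothing states that pools were separate cohorts, so p-values measure spread between pools. Replicate numbers were not used as a pairing in the main test.

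Members and lists were chosen with earlier results of these data known. All 9 members are named. Of each other list, up to 3 changed genes and the first 2 that did not pass are named. Some listed genes are not reported here, and list counts and medians leave them out. The 5 nearest profiles of Slc12a2 and Slc12a5 are also named, and the profiles of Slc12a7 were named after their values were seen. Alternatives were other scalings and filters, DESeq2 1.42.0, limma-voom (limma 3.58.1), no robust option, a replicate block, a marker-score covariate, and leaving out libraries.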

Additional observations from a re-analysis of the deposited data

Results flagged for a closer look

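Of 46 quantities examined, 4 had a GDX library far from the other 3, where chance flags about 1 in 20. Slc12a5 was at 629.5 CPM in GDX replicate 2, against 572 to 579.8 CPM in the others. Gabra2, a GABA-A receptor subunit gene, was at 170.2 CPM in GDX replicate 4, against 142 to 144 CPM in the others. Kiss1 was at 114 CPM in GDX replicate 4, against 44.5 to 56.0 CPM in the others. Summed oligodendrocyte markers were at 5918 CPM in GDX replicate 1, against 2849 to 3153 CPM in the others. Groups of 3 libraries were not examined in this way.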

How the results depend on the processing

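Slc12a7 passed the test in all 18 alternatives, with log2 fold changes of −1.10 to −0.99 and adjusted p values of 4.3e-13 to 0.00426. The number of changed genes, 710, became 1609 without a low-count filter, 1400 with DESeq2, 1082 with limma-voom, 325 with the marker-score covariate and 364 to 974 with each library left out in turn. The share of higher genes among them was 65.8%, against 52.2% without scaling factors, 44.9% without a filter and 48.2% with DESeq2. The number of changed members became 2 without a filter, through Slc12a4. Of the other listed genes, 3 were higher and 4 lower. The lower ones became 10 without a filter, 9 with DESeq2, 1 with the covariate and 1 to 7 with libraries left out, and the higher ones 5 without a filter, 5 with limma-voom and 1 to 4 with libraries left out. Deviations of equal replicate numbers from their group means correlated at −0.0205, −0.038 and −0.0555. With so few libraries behind each mean, these values cannot settle whether the numbers pair the libraries. With the replicate block 612 genes changed, and Ckb (adjusted p = 0.0583) and Gabra4 (0.0845) lost their calls.

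Log2 fold changes that turned sign belonged to genes that did not pass, and the cause was not tested. Slc12a2 was at 0.03 with the block, 0.25 with the covariate, 0.20 without GDX replicates 1 and 4, and −0.22 to 0.02 with libraries left out. Slc12a4 was at 0.03 with the covariate. Wnk1 was at 0.17 with the covariate and 0.10 without GDX replicates 1 and 4. Slc12a9 ran from −0.10 to 0.05. Slc12a3 was at −0.40 with limma-voom. Cab39 was at −0.03 without scaling factors and −0.01 to 0.06 with libraries left out. Cab39l was at 0.01 with the block and the covariate, and ran from −0.14 to 0.12. Epb41l1 was at −0.02 without scaling factors. Clcn2 was at −0.03 without scaling factors, −0.04 with limma-voom, −0.10 with the block, −0.12 with the covariate, −0.10 without GDX replicates 1 and 4, and ran from −0.10 to 0.14. Slc4a3 was at −0.01 with the block, −0.03 with the covariate and without GDX replicates 1 and 4, and ran from −0.01 to 0.14. A floor of 3 counts equals at most 0.101 CPM, which limits Slc12a1 and Slc12a3.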
